A study of Mus musculus with 2 samples.

Results

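The nuclei described here are the oligodendrocytes among nuclei sorted for a reporter of Atf3 expression from mouse cortex after a mild traumatic brain injury (mTBI). They were chosen by the deposited label Oligo, given to each nucleus by mapping to a cortical reference, and by standing outside the neuron subset. There were 68 such nuclei among 8171 (0.832%), 26 from a male pool and 42 from a female pool. A further 7 nuclei carried the label inside the neuron subset and were left out. Each pool joined 4 mice older than 7 weeks that carried 1 copy of the inducible recombinase allele (Atf3-CreER:+/wt) and 1 copy of the nuclear envelope reporter (SUN-SfGFP:+/wt), had an mTBI, received tamoxifen on days 4 and 5 and gave the ipsilateral cortex on day 7 after injury. Nuclei positive for GFP and the DNA dye DRAQ5 were sorted and sequenced on the 10x Genomics platform. The reporter marks any cell in which the recombinase was active at the time of tamoxifen, whether or not Atf3 was still transcribed at collection. All samples were injured, so every comparison is between cell classes after injury and not with uninjured cortex.

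Oligodendrocytes wrap axons in myelin, a compact lipid-rich sheath that allows fast conduction. They arise from precursors that stay in the adult cortex, and the factors SOX10, OLIG2 and MYRF drive the step from precursor to myelinating cell. In white matter damage they are a vulnerable cell type, and precursors divide and differentiate to replace them.

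Transcripts were counted as unique molecular identifiers (UMIs), and a level is given as CPM, UMIs scaled to the class total in that library, with the male library given first and the female library second. The 68 nuclei held 54082 UMIs (male) and 196753 UMIs (female), with medians of 1756.5 (range 601 to 4646) and 4210.5 (723 to 11991) UMIs per nucleus. The labels were checked against Xist and Y-linked genes: the male pool held 17 UMIs of Xist and 2596 of Y-linked genes, and the female pool 34011 and 18, although a label field of the female pool gives its sex as male. Sex, pool and depth differ together between the libraries and cannot be told apart, so no difference between the libraries was tested. UMIs were summed over the nuclei of each class in each library, and the oligodendrocytes were compared with 115 astrocytes, 4028 microglia and the 2580 nuclei of the neuron subset in a single edgeR fit over 11727 genes with 2 sums per class. The classes were named from these same counts, so genes that define a class could hardly fail to differ, and p-values cover the spread between 2 libraries only. Of all genes tested, 4.98% were higher and 7.45% lower than in astrocytes, 9.99% higher and 12.1% lower than in microglia, and 7.95% higher and 11.6% lower than in neurons. The split depended on the tool, since DESeq2 called 57.4% of its calls against microglia and 54.2% of those against neurons in the higher direction, where edgeR gave 45.2% and 40.6%. In all 3 comparisons 325 genes (2.77%) were higher and 60 genes (0.512%) lower, and 319 genes (2.72%) were also higher in both libraries. The median log2 fold change over all genes was -0.20 against astrocytes, -0.37 against microglia and -0.35 against neurons. A value given as without a library is from a fit that left out only the oligodendrocyte sum of that library. The other classes kept the sums of both libraries, so such a value sets oligodendrocytes of a single pool against both pools.

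Oligodendrocytes were 0.65% of the labelled male nuclei (26 of 4003, 95% Clopper-Pearson interval 0.425% to 0.95%) and 1.01% of the female nuclei (42 of 4168, 0.727% to 1.36%). The mean was 0.829% ± 0.253 (SD, n = 2). With the study's limits of 6000 genes and 5% mitochondrial UMIs, 67 of the 68 nuclei remained. In the deposited clustering 63 of the 68 nuclei lay in a single cluster of 66 nuclei (cluster 22). Its other members were 1 microglial nucleus and 2 nuclei with neuronal labels that stood outside the neuron subset. The other oligodendrocytes lay in cluster 0 (1 nucleus), cluster 21 (2 male nuclei) and cluster 16 (2 female nuclei). No barcode of an oligodendrocyte occurred in both libraries.

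The myelin genes are described under this label, but they are no independent check of it, since the label was mapped from these same counts. Mbp, which encodes myelin basic protein, had a UMI in 21 of 26 male nuclei (80.8%, interval 60.7% to 93.5%) and 40 of 42 female nuclei (95.2%, 83.8% to 99.4%). Mog, an outer-surface glycoprotein, had one in 9 of 26 (34.6%) and 25 of 42 (59.5%). In microglia, which make no myelin, Mbp had a UMI in 12.1% of male and 22.4% of female nuclei at median depths of 1298.5 and 3012.5 UMIs, and in the deeper neuron subset in 21.1% and 29.0%. In astrocytes, at median depths of 2637 and 5286 UMIs, Mbp had a UMI in only 5.66% and 3.23%. The share with Mbp in oligodendrocytes was thus well above each other class in each library. The source of Mbp in the other classes was not tested. After thinning every nucleus to 1500 UMIs, which left out 12 male and 2 female oligodendrocytes, the mean over libraries was 82.0% for Mbp (88.0% ± 10.2 (SD, n = 2) unthinned) and 30.4% for Mog (47.1% ± 17.6), against 11.75% for Mbp in microglia. Of the 68 nuclei, 59 held UMIs of 3 or more of the 11 myelin genes, and the median nucleus held 4.5 of them (male, range 0 to 9) or 6 of them (female, 1 to 10).

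Myelin genes set these nuclei apart from every other class, and 10 of the 11 listed genes passed the filter and were higher in all 3 comparisons, where 2.77% of all genes were. The filter took class as its group, so a gene could pass through the oligodendrocyte sums alone. Mbp stood at 3513 CPM (male) and 3222 CPM (female). In the other classes it stood at 18.6 and 4.37 CPM (astrocytes), 97.0 and 88.7 CPM (microglia) and 64.7 and 50.02 CPM (neurons), so no library of another class came near the oligodendrocytes. The log2 fold change of Mbp was 8.46 ± 0.52 (SE) against astrocytes (edgeR adjusted p = 5.17e-08), 5.02 ± 0.36 against microglia (2.87e-08) and 5.56 ± 0.37 against neurons (1.56e-08). Uncalled barcodes, which hold free RNA, carried Mbp at 91.1 and 78.3 CPM, near the level in microglia. Mobp, a small basic protein of the compact sheath, stood at 1405 and 971 CPM and differed from microglia by 7.35 ± 0.32 and from neurons by 9.06 ± 0.35 on the log2 scale (edgeR adjusted p = 3.04e-10 and 5.30e-11). Astrocytes held a single Mobp UMI, which gave a ratio of 660 with an exact counting interval of 117 to 26150. Mag, a receptor of the innermost myelin layer that faces the axon, stood at 370 and 295 CPM. Astrocytes held none of it, so Mag was at least 64.2-fold higher (floor of 3 UMIs over both libraries), and it was 28.8-fold higher than in microglia and 287-fold higher than in neurons. Cldn11, which forms the tight junctions of the sheath, stood at 425 and 295 CPM, and Opalin, a glycoprotein of mature oligodendrocytes, at 203 and 218 CPM. Opalin had 2 UMIs in the whole neuron subset, a ratio of 1897 (exact counting interval 500.2 to 16060). Ermn, a cytoskeletal protein of late differentiation, stood at 166 and 178 CPM and was at least 36.2-fold higher than in astrocytes. Cnp, the myelin phosphodiesterase, had only 22 UMIs (74.0 and 91.5 CPM) and the smallest change of the list against astrocytes, 2.85 ± 0.69 against astrocytes (edgeR adjusted p = 0.00976). Without the female library the Cnp changes were 2.26 against astrocytes, 3.15 against microglia and 5.10 against neurons, the first 2 of them no longer called, and with free RNA subtracted the call against astrocytes was also lost, at 2.81. Omg, the oligodendrocyte myelin glycoprotein, had no UMI in either library, which allows up to 55.5 CPM (male) and 15.2 CPM (female). The other, larger classes did hold Omg, with 0 and 3 UMIs in astrocytes, 2 and 7 in microglia and 11 and 14 in neurons. The plot of levels by class sets these genes beside those of the next paragraphs.

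**Figure D1:**
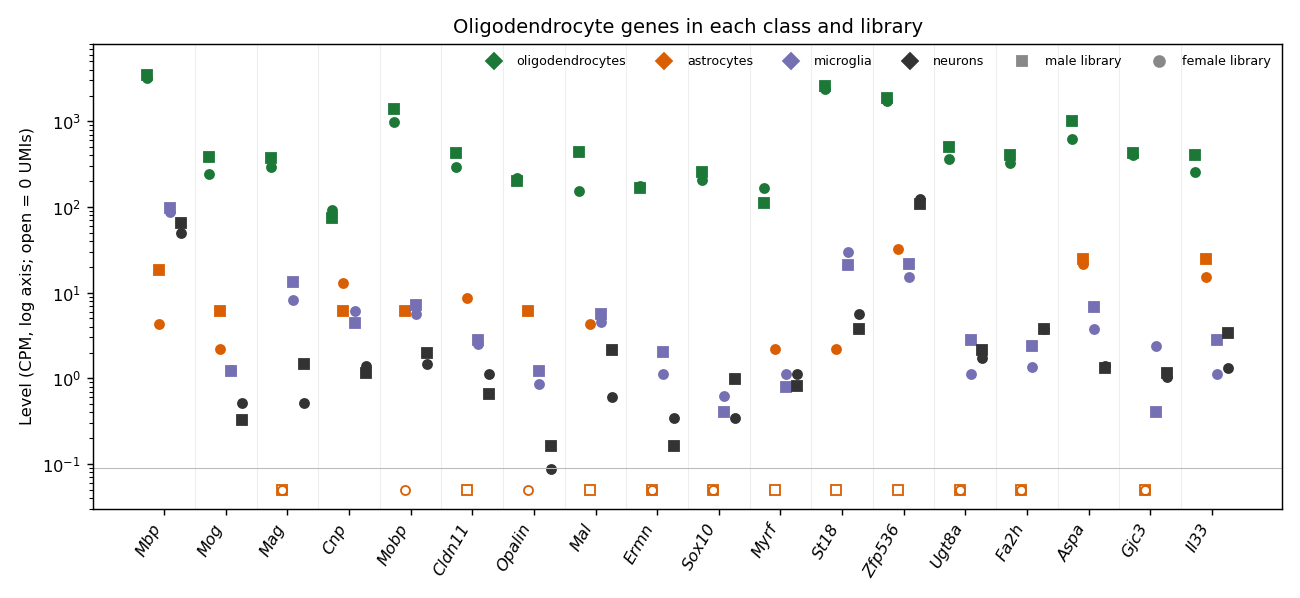
Level of 18 oligodendrocyte genes (CPM, log axis) in the summed nuclei of each class, 1 symbol per library (squares male, circles female), with open symbols below the line for sums with 0 UMIs. Oligodendrocytes lie above every other class for each gene shown, with Mbp at 3513 and 3222 CPM against at most 97.0 CPM elsewhere.

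Because the myelin genes stood so far apart from the other classes, the sequence around their starts is shown for the 4 genes whose windows hold a motif of the factors known to drive them. RefSeq (GRCm38.p6) gave a window of 250 bases before to 50 bases after an annotated start for 8 of the 11 genes. In each window both strands were searched for 3 motifs. The core bound by SOX-type factors was written ACAAAG and, on the other strand, CTTTGT. The MYRF-type motif was written CTGGCAC and its reverse complement is GTGCCAG. An E-box of the kind bound by OLIG factors was written CAGATG and its reverse complement is CATCTG. Each sequence reads 5′ to 3′ along the gene, and capitals mark matches of the first 2 motifs on either strand. The windows are chr9:120149492-120149791 (Mobp, plus strand), chr19:41077064-41077363 (Opalin, minus strand), chr7:30914814-30915113 (Mag, minus strand) and chr11:100574689-100574988 (Cnp, plus strand).
Mobp: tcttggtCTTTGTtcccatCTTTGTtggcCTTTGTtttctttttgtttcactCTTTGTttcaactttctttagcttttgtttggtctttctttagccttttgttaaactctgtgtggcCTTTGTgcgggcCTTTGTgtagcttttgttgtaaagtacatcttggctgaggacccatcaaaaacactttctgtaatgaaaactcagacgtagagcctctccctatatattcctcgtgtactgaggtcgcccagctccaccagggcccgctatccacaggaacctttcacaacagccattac
Opalin: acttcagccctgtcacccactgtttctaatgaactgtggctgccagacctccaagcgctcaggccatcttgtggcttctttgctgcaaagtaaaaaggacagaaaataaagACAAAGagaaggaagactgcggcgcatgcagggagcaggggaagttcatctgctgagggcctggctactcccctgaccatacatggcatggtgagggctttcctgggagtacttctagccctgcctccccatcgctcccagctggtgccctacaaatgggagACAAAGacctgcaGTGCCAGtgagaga
Mag: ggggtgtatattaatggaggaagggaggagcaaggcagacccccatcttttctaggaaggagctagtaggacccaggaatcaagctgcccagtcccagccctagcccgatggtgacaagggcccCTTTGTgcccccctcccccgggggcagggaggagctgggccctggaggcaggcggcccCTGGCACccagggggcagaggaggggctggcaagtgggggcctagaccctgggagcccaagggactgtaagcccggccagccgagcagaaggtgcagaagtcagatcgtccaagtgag
Cnp: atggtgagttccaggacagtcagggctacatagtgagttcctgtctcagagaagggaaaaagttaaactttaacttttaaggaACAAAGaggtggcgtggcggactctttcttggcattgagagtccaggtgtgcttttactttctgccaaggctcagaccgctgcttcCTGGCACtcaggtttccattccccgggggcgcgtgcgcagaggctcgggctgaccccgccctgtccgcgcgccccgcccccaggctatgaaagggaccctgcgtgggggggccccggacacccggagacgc
ACAAAG occurred in the windows of 4 of the 8 genes (50%), against 21.0% of all 27025 genes with a window and 22.3% of the 247 genes with a window among those higher in all 3 comparisons and in both libraries. CTGGCAC occurred in 3 of the 8 (37.5%), against 5.73% of all genes and 10.1% of the 247. The E-box occurred in 1 of the 8, Opalin, against 19.2% of all genes and 21.5% of the 247. The Mobp window held 6 copies of ACAAAG, all on the reverse strand between positions -243 and -115 from the start, and no other window of 32851 held as many. In Mag the SOX-type match lay at -126 to -121 and the MYRF-type match at -68 to -62, and in Cnp they lay at -167 to -162 and -81 to -75. In Opalin a SOX-type match lay at -139 to -134 and another at 24 to 29, followed by the MYRF-type match at 37 to 43. No 2 of these matches overlapped. Mag has other annotated starts: from one of them the same letters lay at -67 to -62 (SOX-type) and -9 to -3 (MYRF-type). The window of a further Mag start held no match. All these matches are descriptions of letters, and no binding was measured.

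The transcription factors of the lineage were less uniform. Of 11 factors 10 were tested, of which 5 were higher than in astrocytes, 9 higher than in microglia and all 10 higher than in neurons. The shares over all genes were 4.98%, 9.99% and 7.95% in the same order. Sox10, which is expressed throughout the lineage, stood at 259 and 208 CPM. Astrocytes held no Sox10 UMI, so it was at least 45.3-fold higher, and the log2 fold change was 8.40 ± 0.60 against microglia and 8.22 ± 0.57 against neurons (edgeR adjusted p = 5.12e-08 and 5.08e-08). Myrf, the driver of myelin gene transcription, stood at 111 and 168 CPM and differed by 7.02 ± 0.61 from microglia and 6.91 ± 0.58 from neurons, or by 6.10 and 6.04 without the female library. The zinc-finger gene St18 stood at 2607 and 2389 CPM, with a UMI in 21 of 26 and 40 of 42 nuclei. Its level was at most 29.97 CPM in any library of the other classes, and it differed by 6.40 ± 0.40 from microglia and 8.68 ± 0.45 from neurons. Zfp536, another zinc-finger gene, stood at 1886 and 1718 CPM but also at 109 and 125 CPM in neurons, from which it differed by 3.62 ± 0.38 (edgeR adjusted p = 3.08e-06), a call lost with free RNA subtracted (3.53). Olig1 and Olig2, the basic helix-loop-helix factors by which the lineage is often recognised, were barely captured, with 3 and 2 UMIs of Olig1 and 1 and 4 UMIs of Olig2 in the male and female nuclei. Neither passed the test against astrocytes, where the Olig1 ratio was 6.18 (exact counting interval 1.01 to 64.9) and the log2 fold change of Olig2 0.70 ± 1.09. Sox8 had all of its 5 UMIs in the female library, and its changes against microglia and neurons turned from 5.50 and 4.65 to fitted values of -3.67 and -4.49 from the 0 UMIs of the male library. Against microglia the calls of Olig1 (5.84), Olig2 (4.49) and Nkx2-2 (5.02) were lost without the female library, as was that of Nkx2-2 against neurons (4.02). Tcf7l2, a factor of the transition out of the precursor state, was not called against astrocytes or microglia (-0.98 ± 0.40 and 0.28 ± 0.39), and was higher than in neurons by 5.53 ± 0.48, or 3.76 without the female library. The change against astrocytes was called with the library block (-0.97), with no filter on low counts (-1.02) and without the female library (-2.66). Without the 5 nuclei that held 50 or more UMIs of the precursor list, outside which lie 15 of its 61 UMIs, Tcf7l2 stood at -2.67 against astrocytes and turned to -1.41 against microglia, both called, and at 3.84 against neurons.

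Among genes of myelin lipid synthesis, those of the galactolipids were higher, and those of the cholesterol pathway were sparse. Of 19 listed genes 18 were tested, of which 7 were higher than in astrocytes, 9 higher than in microglia, 8 higher than in neurons and 7 higher in all 3. Over all genes the shares were 4.98%, 9.99%, 7.95% and 2.77% in the same order. Ugt8a, which makes galactosylceramide, stood at 499 and 361 CPM, with no UMI in astrocytes, and was at least 80.7-fold higher than there. Its log2 fold change was 7.80 ± 0.45 against microglia and 7.43 ± 0.42 against neurons. Fa2h, which adds the hydroxyl group of myelin galactolipids, stood at 407 and 325 CPM and was at least 70.8-fold higher than in astrocytes, 187-fold higher than in microglia and 76.5-fold higher than in neurons. Gal3st1, which makes sulfatide from the product of Ugt8a, stood at 111 and 86.4 CPM and was at least 18.9-fold higher than in astrocytes. Aspa, which splits N-acetylaspartate into acetate for lipid synthesis, stood at 1017 and 620 CPM and differed by 4.89 ± 0.36, 7.16 ± 0.32 and 8.78 ± 0.34 from astrocytes, microglia and neurons. Enpp2, which encodes autotaxin, stood at 703 and 701 CPM and differed by 5.80 ± 0.61, 4.83 ± 0.42 and 4.18 ± 0.40. The stearoyl-CoA desaturase Scd2 stood at 370 and 173 CPM, where astrocytes stood at 111 and 89.5 CPM, and its change against astrocytes of 1.13 ± 0.34 (edgeR adjusted p = 0.036) did not pass without either library (0.98 without the male and 1.48 without the female), without the filter on low counts (1.11) or with free RNA subtracted (1.16). The cholesterol genes Hmgcs1, Sqle, Fdft1, Cyp51 and Dhcr7 had 0 to 7 UMIs each over both libraries, and of their tests only that of Cyp51 against microglia passed (3.08 ± 0.80, edgeR adjusted p = 0.00906), at 2.25 and not called without the male library and 3.90 without the female library. Against neurons Cyp51 was 1.62 ± 0.71 and not called, and DESeq2 called it (1.78). For the other 4 no difference was called by edgeR.

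Genes of contact with the axon, coupling and transport followed the myelin genes. Of 17 listed genes 16 were tested, of which 13 were higher than in astrocytes, 16 higher than in microglia, 15 higher than in neurons and 13 higher in all 3. For all genes these shares were 4.98%, 9.99%, 7.95% and 2.77%. Slc24a2, a sodium, calcium and potassium exchanger, stood at 4216 and 4996 CPM, with a UMI in 23 of 26 and 38 of 42 nuclei. Neurons held it at 460 and 426 CPM, and the log2 fold change was 3.099 ± 0.40 against neurons, 5.93 ± 0.49 against astrocytes and 5.32 ± 0.44 against microglia. Gjc3, a connexin of glial gap junctions, stood at 425 and 402 CPM, with no UMI in astrocytes, and was at least 84.0-fold higher than there, 201-fold higher than in microglia and 300-fold higher than in neurons. The myelin tetraspanin Tspan2 stood at 555 and 498 CPM and differed by 7.83 ± 0.46 from microglia and 7.08 ± 0.41 from neurons. Prr5l, a partner of the mTORC2 complex, stood at 2293 and 1982 CPM and differed by 7.56 ± 0.44, 4.54 ± 0.30 and 8.68 ± 0.37 from astrocytes, microglia and neurons. Nfasc, whose glial form joins the sheath to the axon beside the node, stood at 1128 and 1530 CPM, where neurons, which make another form, stood at 227 and 245 CPM, and was 2.25 ± 0.33 higher on the log2 scale. Without the female library its changes were 1.11, 4.66 and 1.56 against astrocytes, microglia and neurons. The counts do not tell the forms apart. Cntn2, an adhesion protein of the juxtaparanode, stood at 259 and 244 CPM and was 2.22 ± 0.33 higher than in neurons. The iron carrier Trf had 9 and 6 UMIs and the carbonic anhydrase Car2 had 10 and 59 UMIs. Trf was at least 12.3-fold higher than in astrocytes and Car2 differed from them by 3.20 ± 0.58, or 2.34 and not called without the female library. Kcnj10, the inward rectifier shared with astrocytes, was not called against them (-0.80 ± 0.41) and was 2.75 ± 0.45 above microglia, or 1.95 and not called without the female library. With free RNA subtracted the calls of Nfasc, Qdpr and Car2 against astrocytes (1.72, 3.18 and 3.20), of Trf against microglia (3.21) and of Nfasc, Pex5l and Slc44a1 against neurons (2.04, 1.51 and 1.73) were lost. The change of Slc44a1 against neurons (1.78 ± 0.31) was also lost without the female library, at 0.81, and that of Trf against microglia (3.09 ± 0.74) without the male library, at 2.10, while it was 3.93 without the female library.

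**Figure D2:**
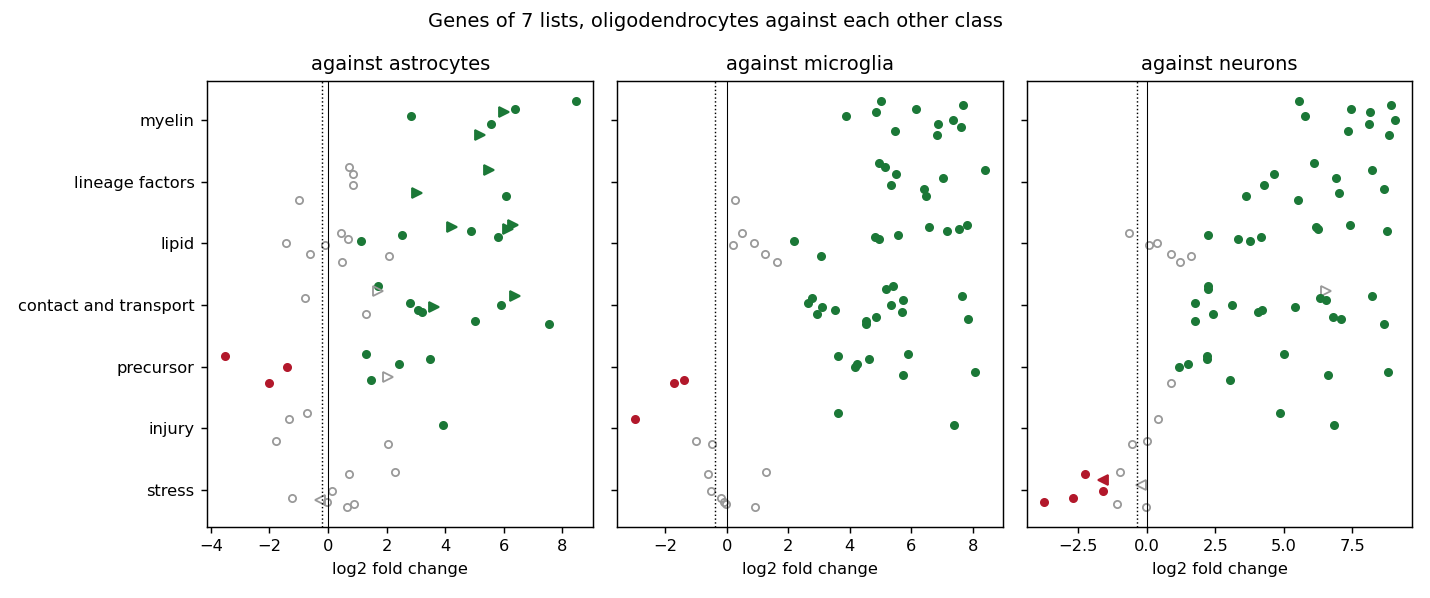
Log2 fold change of the genes of 7 lists in oligodendrocytes against each other class, with filled symbols for genes called by edgeR (green higher, red lower), open symbols for genes not called, triangles for bounds where a class had 0 UMIs, and the dotted line at the median of all genes. Ratios resting on 1 to 3 UMIs and genes without a usable fold are not drawn, and the myelin genes lie to the right of zero in each panel.

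Genes of precursors and of cells about to myelinate gave a mixed picture that rested on a few nuclei. Of 15 listed genes 10 were tested, with 6 higher and 3 lower than in astrocytes, 7 higher and 2 lower than in microglia and 8 higher than in neurons, and 5 higher in all 3. The shares over all genes were 4.98% and 7.45%, 9.99% and 12.1%, 7.95%, and 2.77%. The defining precursor markers Pdgfra and Cspg4 had 1 and 3 UMIs in the 68 nuclei, and Gpr17, a marker of the committed stage, had 1. None of the deposited labels names precursors. The list held 4105 and 4234 CPM, but 726 of its 1055 UMIs (68.8%) lay in 5 nuclei with 53 to 335 UMIs each, and the next nucleus held 20. These 5 nuclei, 2 male and 3 female, were picked for those UMIs, so values with and without them are given as descriptions. Tnr, a matrix glycoprotein made by precursors and young oligodendrocytes, had 337 UMIs (1535 and 1291 CPM), of which 13 lay outside the 5 nuclei. Its log2 fold change went from 2.42 to -1.97 against astrocytes, from 4.24 to -0.14 against microglia and from 1.51 to -2.87 against neurons when they were left out. Vcan, the proteoglycan versican, went from 58 to 4 UMIs and from 1.30 to -2.29 against astrocytes. Its changes against microglia (5.89 to 2.31) and neurons (5.00 to 1.42) stayed above 0 but were no longer called. Lhfpl3, which marks precursors, went from 93 to 14 UMIs and from 2.21 to -0.33 against neurons. Against microglia Lhfpl3 went from 4.63 to 2.09, still called, and against astrocytes from 3.47 to 0.92, no longer called. The SOX factor gene Sox6, which keeps precursors from differentiating, went from 81 to 19 UMIs and from 1.18 to -0.57 against neurons. Against microglia Sox6 went from 4.18 to 2.43, still called higher. Against astrocytes it was called lower both with the 5 nuclei (-1.38) and without them (-3.14). Bcas1, a gene of early myelinating cells that mature sheaths also use, behaved otherwise. It had a UMI in 18 of 26 male (69.2%) and 33 of 42 female nuclei (78.6%), stood at 592 and 1093 CPM, and kept 183 of its 247 UMIs outside the 5 nuclei. Its log2 fold change of 8.06 ± 0.48 against microglia and 8.82 ± 0.48 against neurons became 7.89 and 8.65 without them, and 6.93 and 7.79 without the female library. Enpp6, a choline phosphodiesterase of newly formed oligodendrocytes, had a UMI in 4 of 26 and 9 of 42 nuclei and kept 20 of 32 UMIs, with changes of 5.72 ± 0.60 and 6.60 ± 0.61 that became 5.33 and 6.21. The plot of precursor genes with and without these nuclei shows both sets.

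**Figure D3:**
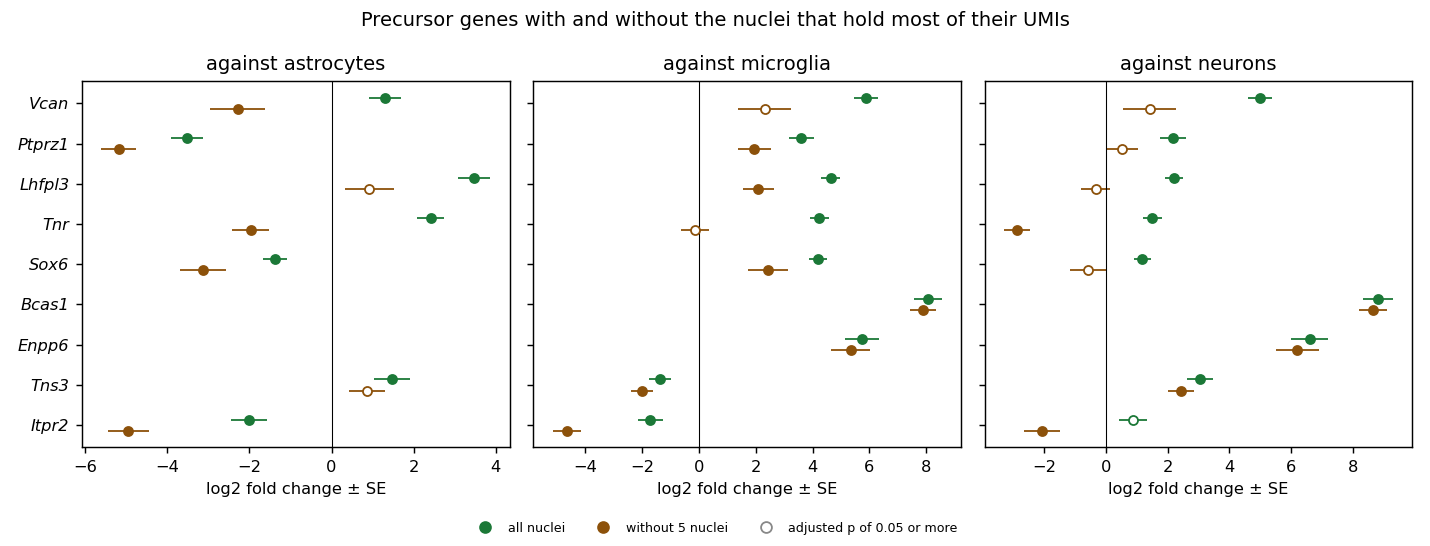
Log2 fold change with its SE of 9 precursor-list genes in oligodendrocytes against each other class, with all 68 nuclei (green) and without the 5 nuclei that hold 68.8% of the list's UMIs (brown), open where the adjusted p was 0.05 or more. Tnr goes from 2.42 to -1.97 against astrocytes while Bcas1 goes from 8.06 to 7.89 against microglia, and the ratios of Bcas1 and Enpp6 against astrocytes, which rest on 1 and 2 UMIs, are not drawn.

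The 5 nuclei were not alike. A female nucleus with 6992 UMIs held 138 UMIs of Tnr, 58 of Bcas1, 41 of Sox6, 36 of the 61 Tcf7l2 UMIs and 12 of Enpp6 beside 29 UMIs of Mbp. Another female nucleus, with 10684 UMIs, held 98 UMIs of Tnr, 35 of Vcan and 24 of Ptprz1 beside 6 of Mbp. Of the male nuclei, one with 2795 UMIs held 45 UMIs of Tnr and 11 of Vcan and no UMI of Mbp, and one with 1918 UMIs held 32 of Tnr and 18 of Lhfpl3. The third female nucleus, with 11991 UMIs, lay in deposited cluster 16 and held 18 of the 19 Gfap UMIs, 15 of the 19 Aqp4 UMIs and 25 of the 36 Slc1a2 UMIs of all 68 nuclei, with none of Mbp. Its 78 UMIs of the astrocyte list were the most of any of the 68 nuclei. The other 4 lay in the main cluster.

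Genes reported to rise in oligodendrocytes in injury and disease were mostly sparse here. Of 13 listed genes 10 were tested, of which 1 was higher than in astrocytes, 2 higher and 2 lower than in microglia and 2 higher than in neurons. Among all genes 4.98% were higher than in astrocytes, 9.99% higher and 12.1% lower than in microglia and 7.95% higher than in neurons. With 10 genes tested, these counts lie too near those shares to be read as a result about the list. Il33, a nuclear alarmin of mature oligodendrocytes and astrocytes that is released on damage, stood at 407 and 254 CPM, with a UMI in 9 of 26 (34.6%) and 19 of 42 (45.2%). It stood at 24.8 and 15.3 CPM in astrocytes and below 3.50 CPM in microglia and neurons. The log2 fold change was 3.92 ± 0.53 against astrocytes (edgeR adjusted p = 5.63e-05), 7.38 ± 0.50 against microglia (1.60e-08) and 6.83 ± 0.46 against neurons (1.80e-08), and Il33 was the only gene of the list higher in all 3. C4b, the complement component C4, stood at 203 and 254 CPM, with a UMI in 5 of 26 and 17 of 42 nuclei. It stood at 433 and 330 CPM in astrocytes and was not called against them (-0.71 ± 0.34), and it was 3.60 ± 0.38 above microglia and 4.87 ± 0.39 above neurons, or 2.88 and 4.19 without the female library. With free RNA subtracted the change against microglia was 3.62 and not called. The class I genes H2-K1 (3 and 4 UMIs) and B2m (1 and 2 UMIs) were lower than in microglia, H2-K1 by -3.00 ± 0.74, which was -2.54 and not called without the female library, and B2m at a ratio of 0.118 (exact counting interval 0.0243 to 0.345). Sgk1 was not called against astrocytes in the main fit, but it was called higher in most alternatives, among them DESeq2 and the library block. Serpina3n had 1 UMI, and Klk6 and Socs3 had none.

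Stress genes linked to Atf3 were lower in these nuclei than in neurons for some members. Of the 17 stress genes tested (of 18) none was called against astrocytes or microglia, and 6 were lower than in neurons, where 11.6% of all genes were. Atf3 itself had a UMI in 1 of 26 male nuclei (3.85%, interval 0.0973% to 19.6%) and 2 of 42 female nuclei (4.76%, 0.582% to 16.2%). In neurons it had a UMI in 24.5% and 43.9% of nuclei, at median depths of 3591 and 8501.5 UMIs, and in microglia in 3.25% and 9.07%. In astrocytes it had one in 0 of 53 male nuclei, which allows a share of up to 5.66%, and in 3.23% of female nuclei. After thinning to 1500 UMIs the mean share was 2.50% in oligodendrocytes (4.30% ± 0.648 (SD, n = 2) unthinned), 3.77% in microglia and 16.1% in neurons. The share in oligodendrocytes was not distinguishable from that in microglia at this number of nuclei. Atf3 stood at 18.5 and 102 CPM, and 19 of its 21 UMIs lay in a single female nucleus. Its log2 fold change was -0.99 ± 0.56 against neurons, 1.27 ± 0.63 against microglia and 2.27 ± 0.86 against astrocytes, and none was called (edgeR adjusted p = 0.25, 0.173 and 0.107). Without that nucleus the change against neurons was -4.24 and was called, so the result for Atf3 turned on 1 of 68 nuclei. In the fit with the library as a replicate block all 3 changes were called, at -1.11 against neurons, 1.19 against microglia and 2.29 against astrocytes. With no filter on low counts those against neurons (-1.18) and astrocytes (2.24) were called as well. The reporter transcript had no UMI in 26 male nuclei, which allows a share of up to 11.5%, and had 1 UMI in 42 female nuclei, against 0.710% and 2.10% of microglia and 2.32% and 8.74% of neurons. Ecel1, an endopeptidase induced in injured neurons, stood at 37.0 and 25.4 CPM against 267 and 380 CPM in neurons, a log2 fold change of -3.75 ± 0.52 (edgeR adjusted p = 4.77e-05). Jun and Ddit3, factors of the axon injury and integrated stress responses, were lower by -2.68 ± 0.60 and -2.26 ± 0.50, and Trib3, with no UMI, was at least 3.04-fold lower. The calls of Jun (-2.29) and Ddit3 (-1.79) were lost without the female library and that of Hspa5 (-1.58 ± 0.47) without either library (-1.56 without the male and -1.73 without the female), and with free RNA subtracted the fitted change of Ecel1 was -13.16 and not called. Mdm2, a target and inhibitor of p53, stood at 407 and 280 CPM and did not pass in any comparison. Its change against microglia of 0.91 ± 0.34 was called with the library block (0.95), with DESeq2 size factors (1.04), with the other sums thinned (1.03) and without the 5 precursor-rich nuclei (1.04).

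Markers of the other classes were set beside these results. The 15 microglial markers summed to 980 and 1616 CPM in oligodendrocytes, against 7166 and 7104 CPM in microglia and 2456 and 2731 CPM in uncalled barcodes, and 14 of the 15 were lower than in microglia. C1qa and Lyz2 were at 0. All 12 astrocyte markers were lower than in astrocytes, with a sum of 647 and 849 CPM against 23430 and 18900 CPM. Slc1a2, the main glutamate transporter of astrocytes, stood at 92.5 and 158 CPM against 8577 and 7265 CPM, a change of -5.88 ± 0.47, or -6.82 without the female library. Against microglia 4 of them (Aqp4, Gfap, Gpc5 and Fgfr3) were higher, and against neurons these 4 and Slc1a3. The male nuclei had no UMI of Gfap or Fgfr3, and with the nuclei of the main deposited cluster alone none of the 4 was called against microglia or neurons (Aqp4 1.06 and 2.57, Gpc5 1.60 and 0.46). Neuronal markers summed to 3310 and 2013 CPM, against 31800 and 31480 CPM in neurons and 21950 and 20010 CPM in uncalled barcodes, and 10 of 12 were lower than in neurons. Meg3, an abundant nuclear long non-coding RNA of neurons, stood at 1220 and 539 CPM against 11600 and 12630 CPM. Of 7 vascular markers 6 had no UMI, and Dcn had 1. The sum of the myelin list was 11190 and 8854 CPM in oligodendrocytes and 246 and 214 CPM in uncalled barcodes, so the plot of list sums shows the first 4 lists to be the ones in which oligodendrocytes stood above every other source.

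**Figure D4:**
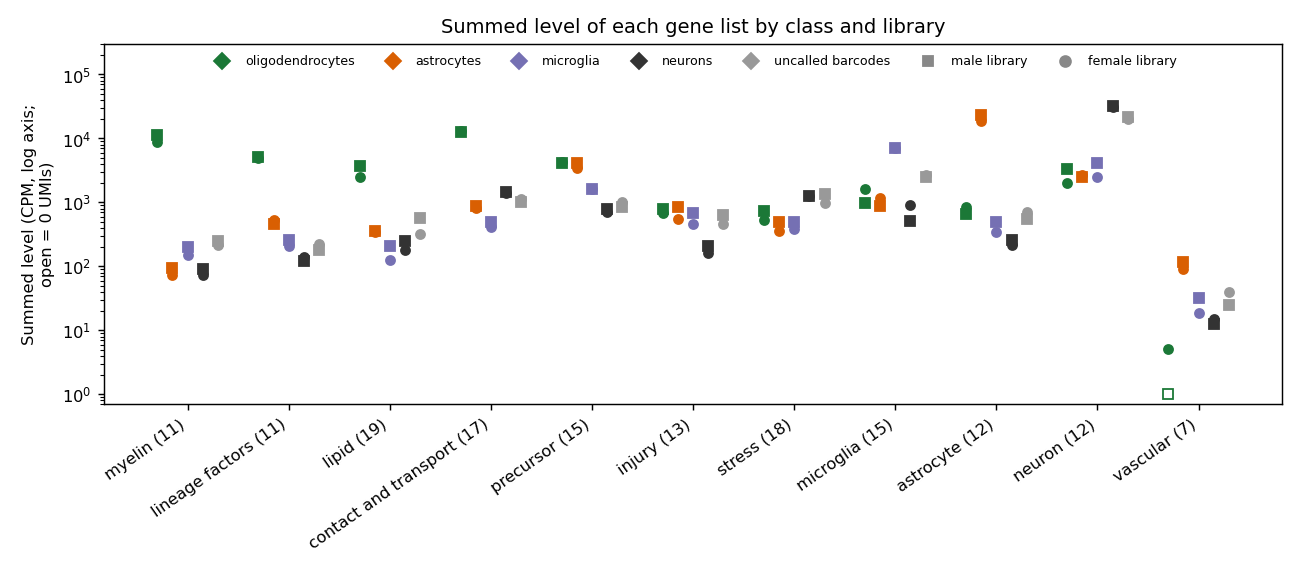
Summed level (CPM, log axis) of each gene list in oligodendrocytes, the 3 other classes and uncalled barcodes, 1 symbol per library (squares male, circles female, open for 0 UMIs), with the number of genes in brackets. Oligodendrocytes hold the myelin list at 11190 and 8854 CPM, against at most 246 CPM elsewhere, and the stress list at 721 and 524 CPM, below both neuronal libraries.

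By the rank of the smallest of their 3 changes, the leading genes among those higher in all 3 comparisons and in both libraries were C030029H02Rik, Sox10, Bcas1, Insc, Mroh3, Gjc3, Ugt8a, 1700047M11Rik, Mobp and Cpm. C030029H02Rik stood at 610 and 285 CPM, with no UMI in astrocytes. It was at least 73.3-fold higher than in astrocytes, 386-fold higher than in microglia and 1014-fold higher than in neurons. Insc, which encodes an adaptor of spindle orientation, had 3 male and 63 female UMIs, with changes of 7.74 ± 0.78 against microglia and 8.53 ± 0.78 against neurons that were 5.14, not called, and 6.03 without the female library. Cpm, a carboxypeptidase, had 3 and 26 UMIs, with changes of 7.44 ± 0.84 and 7.30 ± 0.79 that were 5.97 and 5.89, neither called, without that library. Mroh3 rested on 12 UMIs. Sec14l5, ranked for its change against microglia, stood at 647 and 498 CPM and differed by 8.61 ± 0.44 from microglia and 8.82 ± 0.43 from neurons. Hapln2, a link protein of the node of Ranvier, had 9 UMIs and none in microglia, so it was at least 126-fold higher there. Pstpip2, an adaptor of the actin cytoskeleton also used by myeloid cells, stood at 629 and 432 CPM and was at least 98.0-fold higher than in astrocytes and 21.7-fold higher than in microglia. Plxnb3, a semaphorin receptor, had 39 UMIs (148 and 158 CPM) and was at least 32.1-fold higher than in astrocytes. The genes lowest in oligodendrocytes by bound had no UMI in them. Bmpr1b, a BMP receptor, was at least 54.9-fold lower than in astrocytes, Plxdc1 at least 28.4-fold lower than in microglia and Inhba, an activin subunit, at least 14.01-fold lower than in neurons. Spi1, the master factor of the myeloid lineage, was at least 19.5-fold lower than in microglia.

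Single nuclei differed widely in myelin and precursor content, and 9 of the 68 held fewer than 3 myelin genes. The male nucleus in cluster 0 had 657 UMIs and none of a myelin gene. A male nucleus in cluster 21 had 4327 UMIs, of which 7.30% were mitochondrial, and 1 UMI of the myelin list. It held 12 of the 16 Spag16 UMIs, 10 of the 13 Cfap43 UMIs and 9 of the 12 Hydin UMIs of the 68 nuclei, which are genes of motile cilia. A female nucleus in cluster 16 held 35 UMIs of the astrocyte list and the reporter UMI. The female nucleus with 19 Atf3 UMIs held 9241 UMIs, lay in the main cluster and had 3 UMIs of Mbp, 15 of St18 and 11 of Slc24a2. It also held 52 of the 98 UMIs of Sox5, 42 of the 73 of Dusp10, 17 of the 20 of Flnc and 6 of the 8 of Gdnf, which encodes a glial neurotrophic factor. Of Arhgap23, Edil3 and Phlpp1, which had 427, 385 and 411 UMIs in the 68 nuclei, it held none. The genes named in this paragraph were chosen after their values were seen. Without this nucleus, 180 of the 181 called changes of named genes were called as before, the exception being Scd1 against neurons (2.99). Gsn (1.38) and Sgk1 (2.14) against astrocytes were called where they had not been in the main fit. Both were also called with this nucleus kept, with DESeq2, the library block and the main cluster alone, so these gains were not particular to leaving it out. In the plot of single nuclei the nucleus with 19 Atf3 UMIs lies at the lower left, apart from the 4 main-cluster nuclei with a high precursor share.

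**Figure D5:**
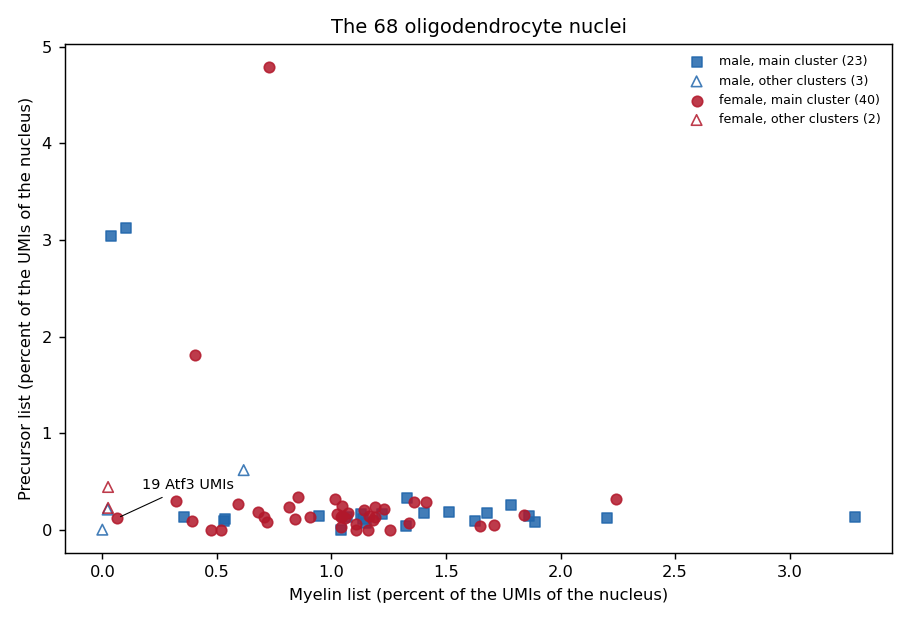
Share of UMIs from the 15 precursor genes against the share from the 11 myelin genes in each of the 68 oligodendrocyte nuclei (percent), filled for the 63 nuclei of the main cluster and open triangles for the 5 others. Most nuclei lie along the myelin axis with a low precursor share, and 4 main-cluster nuclei stand above them.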

How the data were processed

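Nuclei of 2 pools were profiled by droplet 3′ sequencing. The authors deposited, per library, filtered and raw matrices of UMI counts over 31054 genes, not normalized, and a table of 8171 nuclei with labels, clusters and the percent of mitochondrial counts. The submitters' processing notes name Cell Ranger 3.1.0, Seurat, DESeq2 and the build mm10, whereas the headers of the filtered files give Cell Ranger versions 7.0.1 (male) and 7.0.0 (female). The headers of the raw files, from which the uncalled barcodes were taken, name Cell Ranger 4 in both libraries. Levels in uncalled barcodes and in the classes thus come from files whose headers name different versions, and the effect of this was not tested. The deposited corrected matrix was not used.

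Raw counts were summed over the nuclei of 4 classes in each library, giving 8 sums. These were fitted with edgeR 4.0.16 (glmQLFit, glmQLFTest, TMM scaling, filterByExpr) in R 4.3.3 with limma 3.58.1, and p-values were Benjamini-Hochberg adjusted over 11727 genes with a threshold of 0.05. The SE of an edgeR log2 fold change was worked back from the test, as its absolute value divided by the square root of the F statistic. Alternatives tried were DESeq2 1.42.0, other scaling, no filter, a library block and leaving out the oligodendrocyte sum of each library. Others were quality limits, the main cluster, nuclei with microglial genes, subtraction of free RNA (barcodes of 1 to 100 UMIs) and thinning. Tables were made in Python 3.11.15 (pandas 2.3.3, numpy 2.4.6, scipy 1.17.1, with Scrublet from scanpy 1.11.5). The nuclei, gene lists and tests were chosen with earlier results of these data known. Genes named were those of the lists, the 10 genes with the largest smallest change among those higher in all 3 comparisons, and the 5 with the largest change in each direction per comparison.

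The sums held 54082 to 11496304 UMIs. A class with 0 UMIs was set to a floor of 3 counts over both libraries, a ratio with 1 to 3 counts has its exact 95% interval, and intervals and floors cover counting error only. The libraries pair the sums by design, since the classes of a library come from the same pool. Deviations of the oligodendrocyte sums correlated with those of astrocytes, microglia and neurons at r = 0.0312, 0.0915 and 0.128 across 11727 genes, which are not independent replicates. Between the other classes r was higher, at 0.144 (astrocytes with microglia), 0.194 (astrocytes with neurons) and 0.468 (microglia with neurons). The main fit had no block for this pairing. On simulated counts over 10948 genes every gene raised by 4 on the log2 scale was recovered (100%) in each comparison. Of genes lowered by 4, 34.0% were recovered against astrocytes and 40.4% against microglia and against neurons. Scrublet in scanpy marked 37 of 8171 nuclei (0.453%) as doublets, none of them an oligodendrocyte, a share too low for the caller to have worked, and no nuclei were removed. Results of some listed genes are not reported here.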

Additional observations from a re-analysis of the deposited data

Results flagged for a closer look

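Signal of the 11 myelin genes was also found outside the nuclei compared, above the limit that a count of 0 allows. The 7 nuclei labelled oligodendrocyte inside the neuron subset held the list at 508 CPM (6 of 11812 UMIs, limit 254 CPM), with none of Mbp. The 87 called barcodes without a deposited label held it at 185 CPM (48 of 258892 UMIs, limit 11.6 CPM). Uncalled barcodes held it at 246 CPM (male) and 214 CPM (female, limits 6.21 and 3.26 CPM). All 4 values lie far below the 11190 and 8854 CPM of the oligodendrocytes.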

How the results depend on the processing

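Over 14 settings, 2364 of 2486 values of the 181 called changes of named genes kept direction and call, 105 lost the call and 17 reversed, and 121 of the 181 changes held in every setting that gave a value. Without the female library Sox8 (-3.67 against microglia, -4.49 against neurons), Gfap (-5.68, -4.90) and Fgfr3 (-5.26, -4.03) reversed, fitted on 0 UMIs, and without the male library they stood at 6.01 and 5.17, 5.91 and 6.68, and 4.09 and 5.30. With the main cluster alone Gfap (-5.47, -4.74) and Fgfr3 (-5.05, -3.88) did. Of 3 settings chosen after seeing the data, leaving out the 5 precursor-rich nuclei reversed Vcan (-2.29) and Tnr (-1.97) against astrocytes, Tnr (-0.14) against microglia, and Lhfpl3 (-0.33), Tnr (-2.87) and Sox6 (-0.57) against neurons, keeping nuclei with 3 or more myelin genes reversed Gpc5 against neurons (-1.14), and leaving out the Atf3-rich nucleus reversed none.

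Leaving out either library in turn, which leaves the oligodendrocytes 1 sum assumed to vary like the other classes, gave 329 to 604 genes higher and 405 to 595 lower against astrocytes, 633 to 1111 and 870 to 1140 against microglia, and 448 to 884 and 755 to 1068 against neurons. The lower ends came without the female library, which moved 63 of 178 called changes by over 1.5-fold, against 7 of 176 for the male library. Subtracting free RNA gave 283 higher and 359 lower against astrocytes. Thinning the other sums gave 542 lower against astrocytes, 768 higher and 671 lower against microglia and 595 lower against neurons, over 3858 genes that passed the filter. The thinned share of nuclei with Atf3 was 2.50%. The share of oligodendrocytes ranged from 0.65% to 1.01% by library.

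With the library as a replicate block, which pairs the sums of a pool, 712 genes were higher and 1063 lower against astrocytes, 1338 and 1699 against microglia and 1083 and 1629 against neurons. All 181 called changes kept their call, and 12 changes not called without the block were called with it, among them the 3 of Atf3. DESeq2 gave 722 and 825, 1565 and 1163, and 1312 and 1111, and moved the median change of all genes from -0.20, -0.37 and -0.35 to -0.09, -0.17 and -0.12. With DESeq2 size factors in edgeR the medians were -0.13, -0.25 and -0.23. In that setting 49.7% of the calls against microglia and 45.4% of those against neurons were in the higher direction. The cause of the shifts between settings was not tested. In the simulated data lowered genes were recovered less often than raised ones, so lower genes may be missed more often.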
